A study of Mus musculus with 24 samples.

Results

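The comparison described here was between cortical neurons carrying the H2BE-KO/mCherry-KI genotype (KO) that had received brain-derived neurotrophic factor (BDNF) for 24 h and KO neurons of the same cultures without BDNF. It used 8 of the 24 libraries of the study: 4 KO control libraries and 4 KO libraries at 24 h, chosen by genotype and treatment label and paired by the culture codes KO2A, KO2B, KO2C and KO2D. The cells came from the cortex of mouse embryos at E16.5 and had been kept in culture for 12 days. The wild-type (WT) libraries (4 control, 4 at 24 h) had the same embryonic stage and time in culture. The other 8 libraries, from neurons of both genotypes after 30 min of BDNF, were not compared here. They were part of the same fit, and so of its gene filter, scaling, culture block and estimate of spread. H2BE is a variant of histone H2B encoded by Hist2h2be, and in KO neurons an mCherry sequence has been knocked in. The sources used here do not say which stretch of the Hist2h2be transcript the altered allele still makes. The replicate is a culture, and each genotype was grown in its own cultures, so genotype and culture cannot be told apart.

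BDNF is a secreted neurotrophin that binds the receptor tyrosine kinase TrkB, the product of Ntrk2. Active TrkB signals through Ras and MAP kinase, PI3 kinase and Akt, and phospholipase C gamma. In cortical neurons this first switches on rapid transcription factor genes such as Egr1, and later a set of effector genes for secreted proteins, channels and synaptic proteins.

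Before the results, 1 library has to be set apart. Hist2h2be was measured at 49.96, 60.6, 57.9 and 54.5 CPM (counts scaled to a common library size of 1e6) in the KO control libraries and at 49.98, 60.9, 53.6 and 21.2 CPM in the KO 24 h libraries, in the order KO2A, KO2B, KO2C and KO2D that is used for all values below. In the WT control and 24 h libraries it lay at or below 5.83 CPM, so Hist2h2be counts were higher in libraries labelled KO, and they do not check the loss of the protein. The library labelled KO2D at 24 h was low for a KO library. That library also held both Xist at 144.7 CPM, made in female cells, and Ddx3y at 66.3 CPM, a Y-linked gene, whereas the KO2D control library held Xist at 422.8 CPM and Ddx3y at 0.193 CPM. Mitochondrially encoded genes took 5.77, 5.17, 9.34 and 18.5% of counts in the KO control libraries and 4.20, 4.31, 9.26 and 10.9% at 24 h. The 30 min library labelled KO2D held Serpinb2, a gene that rose at 24 h, at 7.59 CPM against at most 0.746 CPM in the other 3 KO libraries at 30 min. The main counts are therefore given with 4 cultures and without KO2D, whose libraries were all left out of that second fit. Fold changes of single genes and counts over lists are given both ways where leaving out KO2D changed a call or moved them by over 1.5 times. Total counts of the 8 libraries ran from 23734512 to 61860243.

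**Figure D1:**
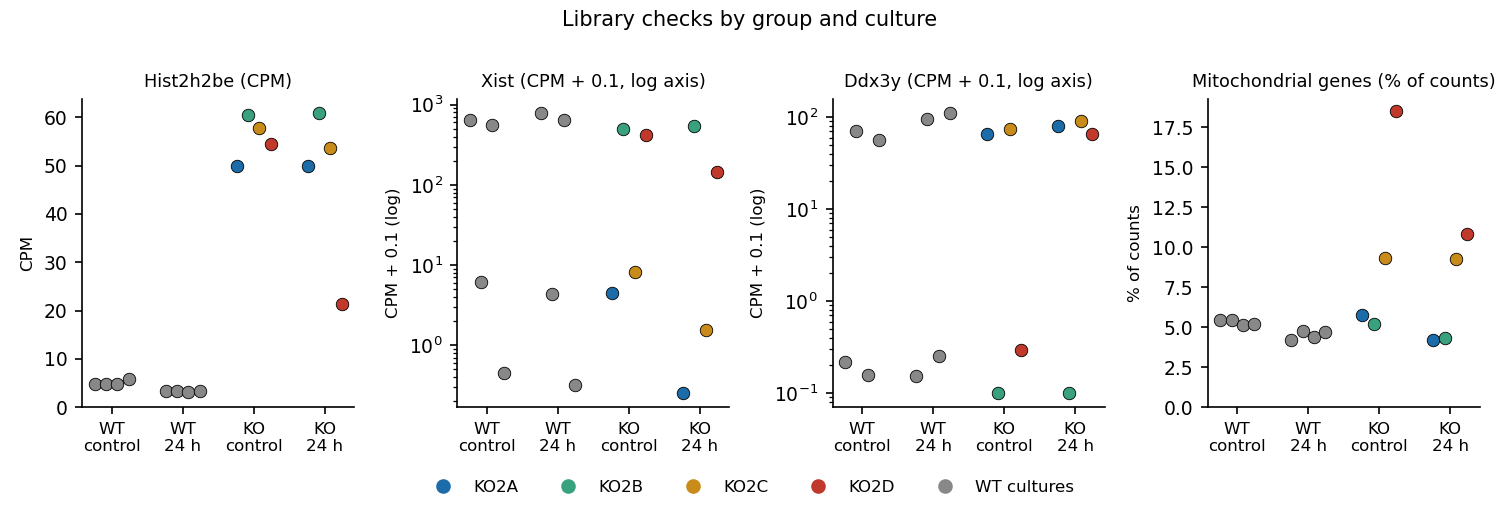
CPM of Hist2h2be, Xist and Ddx3y (the latter as CPM + 0.1 on a log axis) and the percent of counts on mitochondrially encoded genes, 1 point per library, in WT and KO control and 24 h groups, with KO cultures in colour. The KO2D 24 h library lies at 21.2 CPM of Hist2h2be between the WT libraries and the other KO libraries, and holds Xist and Ddx3y together.

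The cell type label was checked against neuron markers. Summed over 10 markers, neuronal genes reached 8870 to 9504 CPM in the KO control libraries and 8452 to 9636 CPM at 24 h. At the threshold of an adjusted p under 0.05 in edgeR, Map2 rose and Rbfox3, Tubb3, Neurod6 and Stmn2 fell. Without KO2D, 2 of the 10 neuron markers rose and 5 fell. Astrocyte markers summed to between 212.7 and 360.1 CPM in control libraries and to 221.0, 222.1, 286.7 and 517.8 CPM at 24 h, with KO2D the highest. None of the 13 astrocyte markers tested passed the threshold with 4 cultures, and 4 fell without KO2D. None of the tested markers of microglia (9), endothelial cells (5) or the oligodendrocyte lineage (8) passed in either direction. At an unadjusted p under 0.05, edgeR gave 1 oligodendrocyte-lineage marker, higher at 24 h, and 0 in the astrocyte, microglia and endothelial lists. DESeq2 at its adjusted threshold called the same numbers. The cultures of the 2 genotypes differed in some of these sums. Astrocyte markers summed to 588.7 to 669.2 CPM in the WT control libraries, above every KO control library. Interneuron markers summed to 1896, 1566, 2151 and 3948 CPM in WT control libraries and to 3727, 4365, 4663 and 3173 CPM in KO. Their part in the differences of response between genotypes was not tested. In bulk RNA, fewer cells of a type and less RNA per cell cannot be told apart.

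After 24 h of BDNF, KO neurons had raised the protease gene Mmp3, the integrin genes Itga2 and Itga6 and the activity-regulated genes Arc and Nptx1, and had lowered the receptor genes Grm2, Hrh3 and Ntsr1. In all, 2834 of 16777 genes tested changed (16.9%), of which 1393 rose (8.3%) and 1441 fell (8.59%). Of these, 215 rose and 144 fell by over 2-fold. Without KO2D, 3270 of 16915 genes changed (19.3%), with 1607 higher (9.5%) and 1663 lower (9.83%). Of the 1393 rises, 1154 were also called without KO2D, and of the 1441 falls, 1122 were, and none changed direction. All 4 cultures moved the same way for 1356 of the risen and 1356 of the fallen genes, against 37.1% of all genes tested. The values of the 2 groups did not overlap for 767 of the risen and 754 of the fallen genes, beside 12.8% of all genes tested. Without the culture block, 942 genes were called, and the fit of the 12 KO libraries alone called 1195. Leaving out KO2A, the only KO culture whose control library is numbered 1 in its description, gave 1839 and leaving out KO2B gave 1549.

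The largest rise was that of Mmp3, which encodes the secreted matrix metalloprotease stromelysin-1. Mmp3 was close to absent in control libraries, at 0.0944, 0.0952, 0.0679 and 0 CPM, and stood at 2.53, 1.85, 4.03 and 10.4 CPM at 24 h. The groups did not overlap, and KO2D was the highest at 24 h. Over the 4 cultures Mmp3 had 12 counts in control and 972 at 24 h, a ratio of 64.6 with a 95% interval of 36.8 to 125.4 that covers counting error only. The fitted log2 fold change, where 1 is a 2-fold rise, was 5.52 ± 0.81 (SE; adjusted p = 0.000156), and 4.83 ± 0.50 without KO2D.

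Sele, the endothelial adhesion molecule E-selectin, moved from 0.330, 0.0317, 0.136 and 0 CPM to 1.57, 2.23, 2.36 and 4.48 CPM. It rested on 20 counts over the 4 control libraries. Serpinb2, an inhibitor of plasminogen activators, moved from 0.802, 0.0635, 0.204 and 0.674 CPM to 5.34, 3.543, 5.002 and 6.93 CPM. In both genes every 24 h library lay above every control library. Their log2 fold changes were 4.26 ± 0.69 (adjusted p = 0.000332) and 4.01 ± 0.72 (adjusted p = 0.000833), and 3.81 and 4.05 without KO2D.

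Ifi209, a member of the interferon-inducible p200 family, was more abundant: 1.89, 0.317, 0.543 and 2.69 CPM in control and 27.1, 20.8, 18.1 and 24.4 CPM at 24 h. The 4 treated cultures lay within a narrow range while the controls did not. Its log2 fold change was 4.73 ± 0.68 (adjusted p = 0.000134). The remaining genes among the 15 largest rises ran from 3.27 for the tetraspanin-like Tm4sf1 to 2.46 for Chil3, with the collagen-binding integrin subunit Itga2 at 3.13, the aldo-keto reductase Akr1b8 at 3.03, the antiviral RNA-binding protein Zc3hav1 at 3.0, the galanin receptor Galr1 at 2.72, the GTPase Gimap6 at 2.72, Rasl11a at 2.63, Lce1g at 2.60, the ephrin receptor Epha2 at 2.58 and the oestrogen receptor beta gene Esr2 at 2.53. All 15 were also called without KO2D, and for none of them did the 2 groups overlap.

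**Figure D2:**
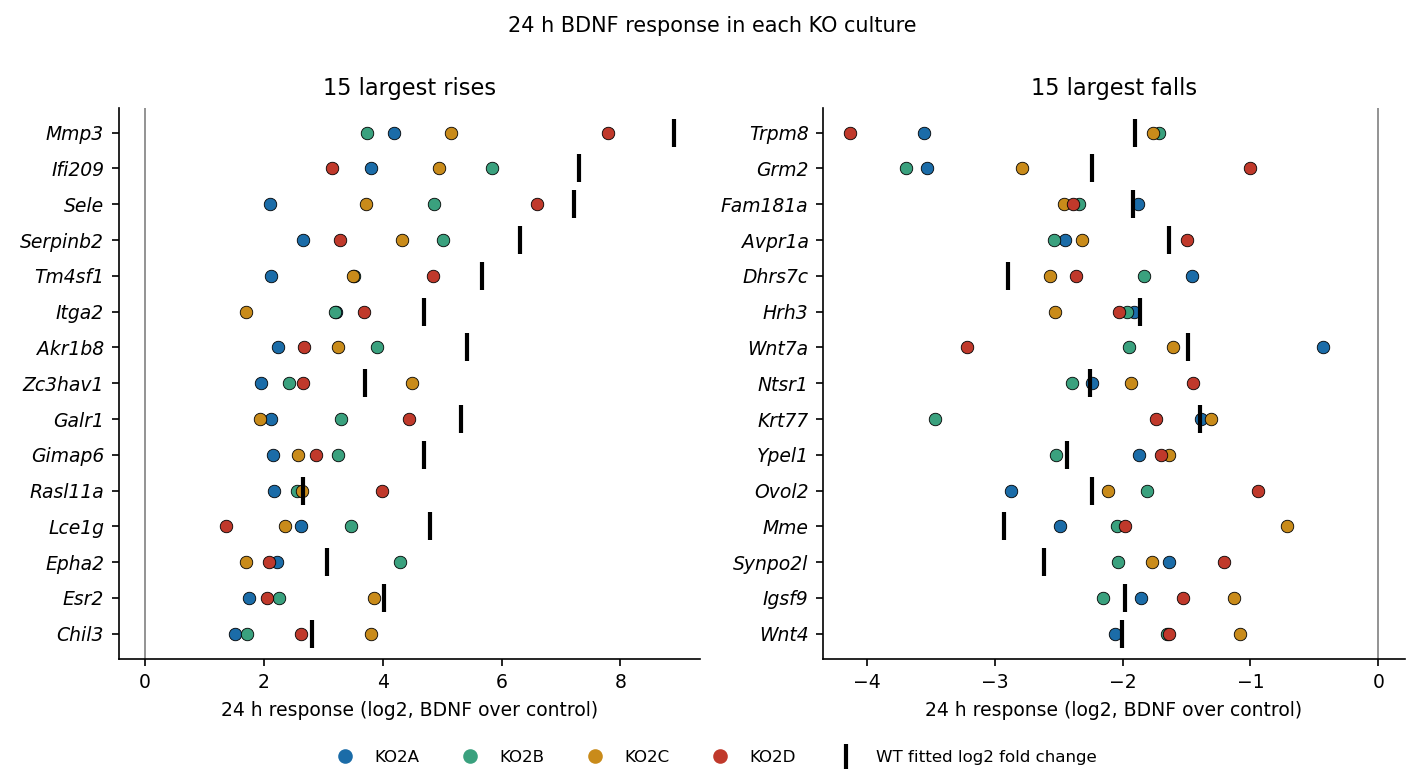
Response at 24 h in each KO culture (log2 of CPM with a prior count of 2, BDNF over control) for the 15 largest rises and the 15 largest falls, with the fitted WT log2 fold change as a black bar. All points of the rises lie right of 0 and all points of the falls left of it, which was a condition for choosing these genes, and KO2D is the smallest fall for Grm2.

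Promoter sequence is shown for 4 of these genes, picked from the rises after the matches were seen. Each holds a match to a pattern searched for a transcription factor class that growth factor signalling is known to act on. Single genes were searched for the AP-1, cAMP response element, CArG and EGR motifs only, and most of the genes named held none of these. The 30 largest changes and 8 activity-regulated genes came to 38 genes, of which 31 had a window and 7 of these held a match. The other matches were the AP-1 motif in Ifi209 and in Mme, a gene that fell, and a CArG box in Egr2. These are the 150 bases directly before the RefSeq transcription start of the GRCm38.p6 assembly (the mm10 build), all on the + strand. Each stretch ends before the annotated start of its own gene. TGANTCA, where N is any base (G in Mmp3, C in Sele and A in Serpinb2), is the pattern searched here for AP-1. Capitals mark it in Mmp3 (chr9:7445672-7445821), Sele (chr1:164048084-164048233) and Serpinb2 (chr1:107511273-107511422), and TGACGTCA, the cAMP response element, in Epha2 (chr4:141301071-141301220).
Mmp3: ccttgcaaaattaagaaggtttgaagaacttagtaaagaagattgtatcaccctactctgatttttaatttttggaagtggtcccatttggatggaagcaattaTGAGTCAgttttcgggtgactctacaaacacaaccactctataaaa
Sele: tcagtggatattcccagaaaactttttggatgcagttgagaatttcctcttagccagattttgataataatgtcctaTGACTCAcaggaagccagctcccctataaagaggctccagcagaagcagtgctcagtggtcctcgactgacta
Serpinb2: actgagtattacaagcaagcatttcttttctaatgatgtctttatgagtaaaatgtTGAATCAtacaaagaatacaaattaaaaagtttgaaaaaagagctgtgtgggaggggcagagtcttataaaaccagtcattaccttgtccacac
Epha2: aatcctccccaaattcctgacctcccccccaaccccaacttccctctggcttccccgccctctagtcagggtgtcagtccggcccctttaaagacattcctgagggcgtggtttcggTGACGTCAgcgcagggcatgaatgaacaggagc
The matches begin 46 bases before the start in Mmp3, 73 in Sele, 94 in Serpinb2 and 33 in Epha2. Both strands were searched in windows of 300 bases (250 before to 50 after the start). TGANTCA was found in 6.99% of the 1402 windows of genes that rose, 5.47% of the 1462 windows of genes that fell, 5.33% of windows of all genes tested and 7.81% of all 32851 windows in the table. TGACGTCA was in 2.92, 2.67, 2.89 and 1.79% of the same sets, and the E-box CACGTG in 11.1, 7.87, 9.41 and 7.15%. The CArG box of serum response factor was in 2.57% of windows of risen genes against 1.40% of windows of tested genes. The FoxO motif GTAAACA was in 2.21% of windows of risen genes, 3.49% of fallen genes and 2.56% of tested genes. The EGR motif GCGTGGGCG was in 1.36, 1.44 and 1.14% of those 3 sets. These shares are descriptions of the letters in the windows, and 1079 of the 1393 risen genes and 1079 of the 1441 fallen genes had a window.

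Among the falls, Trpm8, the menthol and cold receptor channel, had the largest fold change with 4 cultures but is rare: 2.08, 1.36, 1.09 and 2.89 CPM in control and 0.134, 0.383, 0.287 and 0.120 CPM at 24 h, with no overlap. Its log2 fold change was -3.12 ± 0.68 (adjusted p = 0.00345), and -2.48 ± 0.54 without KO2D, when that of Grm2 was larger. Grm2, the presynaptic group II metabotropic glutamate receptor mGluR2, was well expressed, at 38.1, 45.8, 38.2 and 34.0 CPM in control, and stood at 3.25, 3.48, 5.49 and 16.9 CPM at 24 h. The KO2D 24 h library kept the highest level, yet below every control. With 4 cultures the log2 fold change of Grm2 was -2.55 ± 0.38 (adjusted p = 0.000187), and without KO2D it was -3.34 ± 0.19 (adjusted p = 2.64e-09).

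Other receptors for small transmitters and peptides were among the 15 largest falls. Hrh3, the histamine H3 autoreceptor, moved from 3.58, 5.57, 4.21 and 7.32 CPM to 0.918, 1.39, 0.690 and 1.76 CPM, without overlap (log2 fold change -2.11 ± 0.21, adjusted p = 5.27e-06). Ntsr1, the neurotensin receptor of deep cortical layers, moved from 26.5, 20.9, 19.02 and 29.7 CPM to 5.59, 3.94, 4.95 and 10.9 CPM, again without overlap (-1.95 ± 0.22). The vasopressin receptor gene Avpr1a fell by 2.23 and Mme, which encodes the peptide-cleaving enzyme neprilysin, by 1.80 on the log2 scale. The Wnt ligands Wnt7a (-1.96, and -1.32 without KO2D) and Wnt4 (-1.67), the transcription factor gene Ovol2 (-1.89), Ypel1 (-1.90), Fam181a (-2.32), Dhrs7c (-2.12), Krt77 (-1.91), Synpo2l (-1.70) and the synaptic adhesion gene Igsf9 (-1.67) completed the set. All 15 passed without KO2D as well, and none of them had overlapping groups.

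The genes were next grouped by role, with each list read against the share of all genes tested that rose (8.3%) or fell (8.59%) and against the median log2 fold change of all genes, -0.02. At the receptor itself, Ntrk2 stood at 582, 711, 645 and 409 CPM in control and at 520.5, 569, 512 and 418 CPM at 24 h. The groups overlapped, and only KO2D did not go down. Ntrk2 changed by -0.20 ± 0.07 (adjusted p = 0.0456), and by -0.26 without KO2D (adjusted p = 0.00382). Of 38 genes for neurotrophins, their receptors and TrkB transducers, 7 rose and 7 fell (median 0.05), against 4 and 8 without KO2D. The kinase genes Rps6ka2 and Rps6ka3 rose by 0.54 and 0.52, and Pik3r1, the regulatory subunit of PI3 kinase, fell by 0.57. Bdnf itself was at 272, 209, 257 and 231 CPM in control and 227, 203, 249 and 169 CPM at 24 h, and the change of -0.19 ± 0.16 did not pass the test (adjusted p = 0.47).

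Downstream of the receptor, 13 of 23 feedback inhibitors and transcription targets of MAP kinase rose and 1 fell (median 0.45). Lrig1, a transmembrane inhibitor of receptor tyrosine kinases, moved from 13.4, 15.7, 21.1 and 10.3 CPM to 49.6, 54.1, 47.7 and 34.5 CPM. No 24 h library reached down to the controls, and the log2 fold change was 1.62 ± 0.26 (adjusted p = 0.000345). The MAP kinase phosphatase Dusp5 rose by 1.07, and the Ets factors Etv4 and Etv1 by 0.93 and 0.87. Without KO2D the list counted 10 rises and 2 falls, Etv4 no longer passed (adjusted p = 0.142) and Etv1 rose by 0.58.

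Of 43 rapid activity-regulated genes, 18 were higher at 24 h than in control and none fell (median 0.47). At an unadjusted p under 0.05 or by DESeq2 none fell either. Without KO2D 13 rose and 1 fell (median 0.21). Arc, a regulator of AMPA receptor endocytosis, moved from 9.11, 4.98, 5.78 and 4.04 CPM to 23.8, 19.4, 18.5 and 61.5 CPM. Egr1 moved from 30.8, 22.9, 23.8 and 21.9 CPM to 65.3, 69.2, 49.5 and 187 CPM. In both genes the groups did not overlap and KO2D was far above the other 3 cultures at 24 h. The log2 fold change of Arc was 2.28 ± 0.36 (adjusted p = 0.000311) with KO2D and 1.68 ± 0.22 without it, and that of Egr1 was 1.81 ± 0.35 (adjusted p = 0.00137) and 1.26 ± 0.18. The zinc finger factor Egr2 rose by 2.05 and the stress-response gene Ier3 by 1.84.

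Of 44 late activity-regulated genes, 18 rose and 2 fell (median 0.35), and without KO2D 20 rose and 3 fell. Nptx1, a secreted pentraxin that gathers AMPA receptors at synapses, moved from 88.2, 27.8, 68.3 and 26.2 CPM to 195, 161, 198 and 181 CPM. The 24 h libraries lay close together and above all controls, and the log2 fold change was 1.92 ± 0.29 (adjusted p = 0.000187). Its relative Nptx2 rose by 1.38, the secreted glycoprotein hormone Stc1 by 1.81 and Ptgs2, the inducible prostaglandin synthase, by 1.58. Among 36 genes tied to homeostatic synaptic scaling, a list that shares Arc, Nptx1 and Nptx2 with those above, 8 rose and 8 fell (median -0.001). The falls there included the retinoic acid synthesis gene Aldh1a3 at -2.03, which had under 1 CPM in all 8 libraries and whose groups overlapped. KO2D went from 0.289 to 0.445 CPM while the other 3 cultures went down, and without KO2D the value of Aldh1a3 was -3.30.

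**Figure D3:**
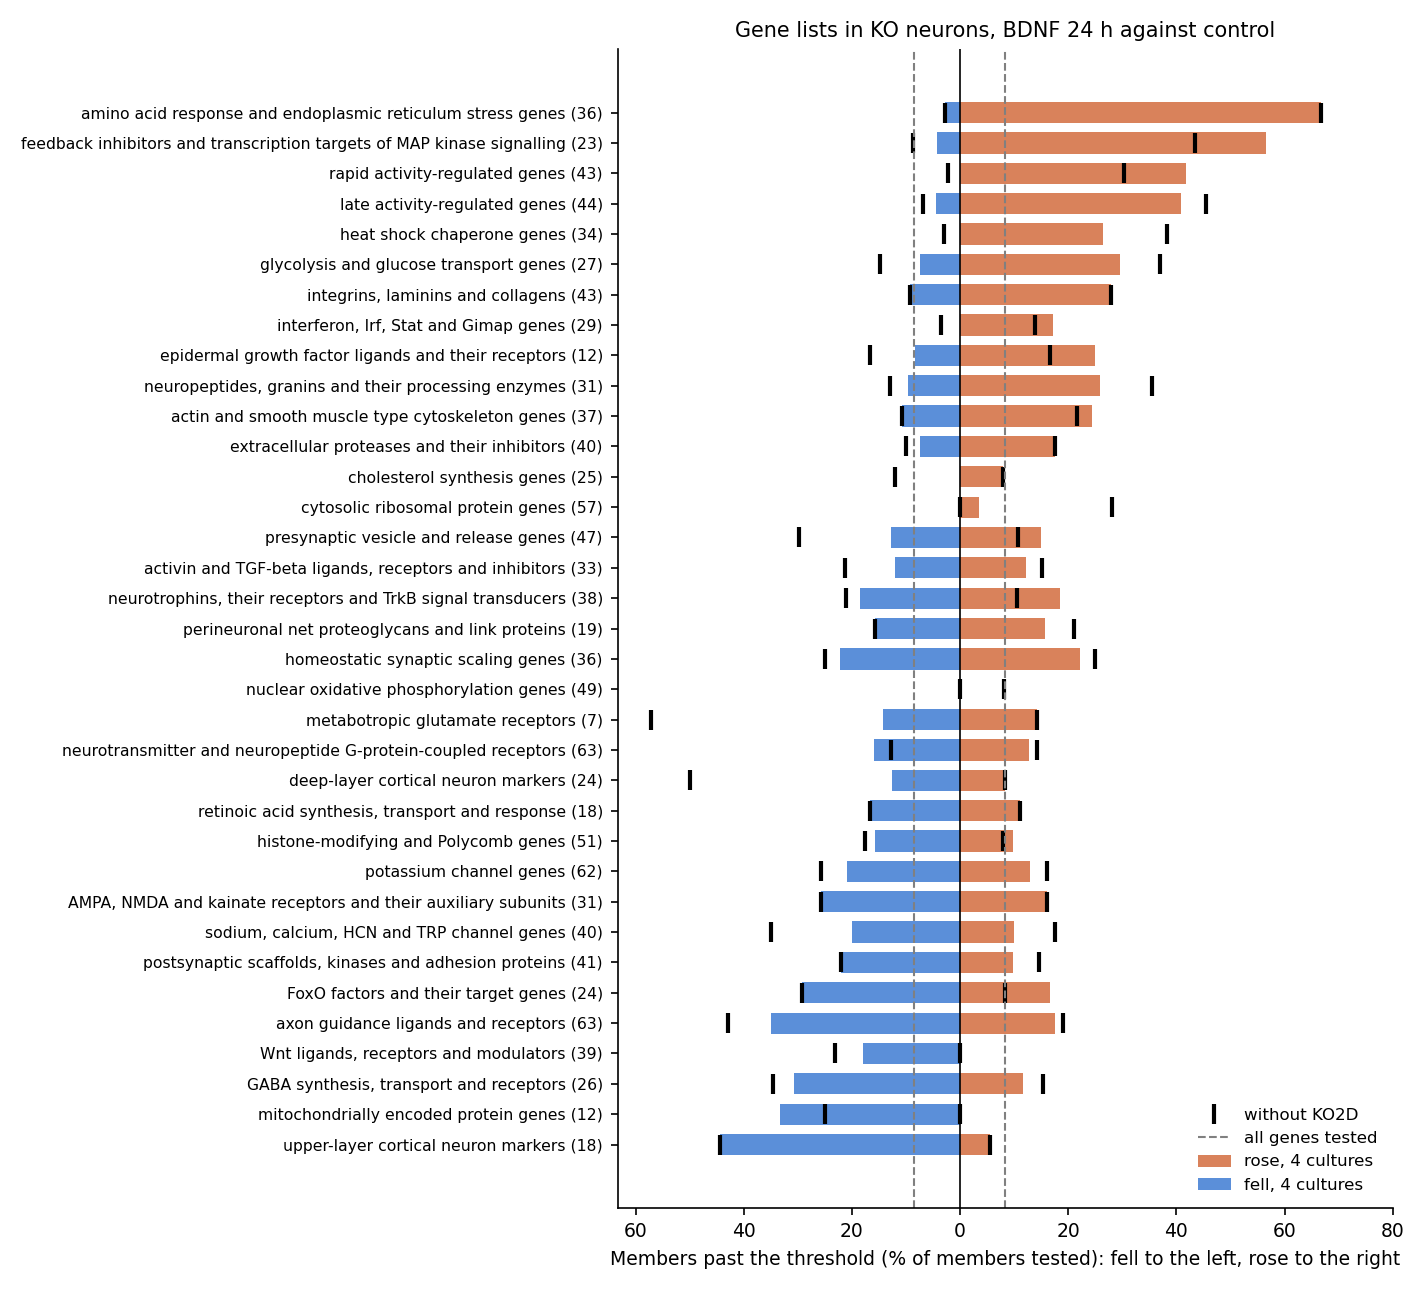
Percent of tested members of each of 35 gene lists that rose (right) or fell (left) in KO neurons at 24 h with 4 cultures, black ticks without KO2D, dashed lines for all genes tested. Amino acid response genes (24 of 36 rose) and upper-layer markers (8 of 18 fell) lie at the ends, and bar and tick differ for the deep-layer markers, with 3 falls against 12 of 24, and for the metabotropic receptors, with 1 fall against 4 of 7.

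Genes that act outside the cell split by class. Of 43 integrins, laminins and collagens, 12 rose and 4 fell (median 0.07), with the same counts without KO2D. Itga6, a laminin receptor subunit, moved from 9.22, 8.03, 8.56 and 6.45 CPM to 30.2, 34.2, 35.0 and 82.5 CPM. KO2D was again the highest at 24 h, the groups did not overlap, and the log2 fold change was 2.31 ± 0.28 (adjusted p = 3.07e-05). The fibronectin receptor subunit Itga5 rose by 1.54 and Itgb3 by 1.47. Of 40 extracellular proteases and inhibitors, 7 rose and 3 fell, with Mmp3 and Serpinb2 at the top and Adamts2 (-1.87) and Mme at the bottom. Among 19 genes of perineuronal nets, the matrix glycoprotein Tnc rose from 8.78, 5.08, 8.56 and 8.13 CPM to 43.2, 43.4, 32.0 and 29.0 CPM (log2 fold change 2.33 ± 0.35, adjusted p = 0.000187), while the proteoglycan genes Vcan and Cspg5 fell by 0.73 and 0.72.

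Of 39 Wnt genes, 7 fell and none rose in edgeR (median -0.21), with 2 higher at an unadjusted p under 0.05 and none higher by DESeq2. Besides Wnt7a and Wnt4, these included Dkk3 (-0.84) and Wnt7b (-0.75), and 9 fell without KO2D. Of 12 genes for epidermal growth factor ligands and receptors, the ligand genes Areg (2.06), Nrg1 (0.60) and Hbegf (0.53) rose and the receptor gene Egfr fell by 0.61. Without KO2D 2 of the 12 rose and 2 fell, and Nrg1 no longer passed (0.47, adjusted p = 0.0966). Of 33 activin and TGF-beta genes, 4 rose and 4 fell, from Bmp6 at 1.81, which missed the threshold without KO2D (adjusted p = 0.0524), to Bmp3 at -1.23, and without KO2D 5 rose and 7 fell. Axon guidance genes were called often: 22 of 63 fell and 11 rose (median -0.18), and 27 fell and 12 rose without KO2D. Semaphorin Sema3e rose by 1.47, the netrin receptor Unc5b by 1.38 and the ephrin ligand Efna5 by 0.95, and the semaphorin receptor Plxnc1 fell by 0.83.

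Genes of inhibitory transmission fell more often than they rose, 8 against 3 of 26 (median -0.10). Slc6a11, a GABA transporter, moved from 36.9, 40.2, 37.0 and 33.1 CPM to 21.03, 19.4, 18.5 and 21.4 CPM. The groups were well apart in all 4 cultures, and the log2 fold change was -0.87 ± 0.12 (adjusted p = 6.69e-05). The receptor subunits Gabrd and Gabra4 fell by 0.52 and 0.51.

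At excitatory synapses both directions occurred. Of 31 AMPA, NMDA and kainate receptor genes, 5 rose and 8 fell. Shisa6, an auxiliary AMPA receptor subunit, moved from 15.2, 9.61, 9.17 and 16.46 CPM to 40.0, 43.6, 48.2 and 40.7 CPM without overlap (log2 fold change 1.83 ± 0.22, adjusted p = 2.36e-05), while another, Gsg1l, fell by 1.06. Of 41 postsynaptic scaffold and kinase genes, 4 rose and 9 fell, the latter including the kinase anchor Akap5 (-0.82) and Camk2a (-0.72). Among the 7 metabotropic receptors, Grm2 fell and Grm7 rose by 0.46, and without KO2D 4 of the 7 fell. Of 47 presynaptic genes, 7 rose and 6 fell, and without KO2D 5 rose and 14 fell. The vesicular glutamate transporter Slc17a6 rose from 44.4, 34.4, 38.9 and 39.9 CPM to 95.3, 92.4, 67.1 and 121.8 CPM (1.20 ± 0.20, adjusted p = 0.000489).

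Among 62 potassium channel genes, 13 fell and 8 rose, led by the A-type channel partner Kcnip4 at -1.24 and the tandem-pore channel Kcnk13 at 1.07. Of 40 sodium, calcium, HCN and TRP channel genes, 8 fell and 4 rose, and the T-type calcium channel Cacna1g fell by 0.71. Without KO2D the falls in this second list came to 14 and the rises to 7. Of 31 neuropeptide genes, 8 rose and 3 fell (median 0.18). Pnoc, the precursor of nociceptin, moved from 83.4, 98.3, 143.4 and 76.1 CPM to 256.8, 270.0, 300.8 and 130.8 CPM, with the KO2D 24 h library inside the control range of the other cultures (log2 fold change 1.28 ± 0.24, adjusted p = 0.00114). The prohormone convertase gene Pcsk2 fell by 1.42. Of 63 G-protein-coupled receptor genes, 8 rose and 10 fell.

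Amino acid response and endoplasmic reticulum stress genes had the largest share of rises of the 35 lists: 24 of 36 rose and 1 fell (median 0.40), the same counts as without KO2D. The changes were modest in size. Psat1, of serine synthesis, moved from 134, 130.2, 112 and 96.8 CPM to 235, 245, 198 and 192 CPM, with no overlap (log2 fold change 0.88 ± 0.12, adjusted p = 7.48e-05). The cystine transporter Slc7a11 rose by 0.95, the endoplasmic reticulum protein gene Creld2 by 0.62 and the folate enzyme Mthfd2 by 0.61. Of 34 heat shock genes 9 rose and none fell in edgeR (2 were lower at an unadjusted p under 0.05), with the endoplasmic reticulum chaperone Hspa5, which is in both lists, at 0.60. Without KO2D 13 heat shock genes rose and 1 fell. Of 27 glycolysis genes 8 rose and 2 fell, against 10 and 4 without KO2D. Of 24 genes of FoxO factors and their targets, 7 fell and 4 rose (7 and 2 without KO2D), among the falls the factors Foxo4 (-1.44) and Foxo6 (-1.14) and the PI3 kinase inhibitor gene Pik3ip1 (-0.96).

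Cytosolic ribosomal protein genes were called for 2 of 57 with 4 cultures (median 0.01) and for 16 of 57, all higher, without KO2D (median 0.19). None of 49 nuclear oxidative phosphorylation genes passed with 4 cultures at the adjusted threshold in edgeR (1 higher and 5 lower at an unadjusted p under 0.05, and 1 lower by DESeq2), and 4 rose without KO2D. Of 12 mitochondrially encoded genes 4 fell (median -0.44), beside the difference in mitochondrial share between the libraries given above, whose part in this was not tested. Of 51 histone-modifying and Polycomb genes 5 rose and 8 fell, including the Polycomb gene Cbx7 at -0.81. Of 29 interferon, Irf, Stat and Gimap genes 5 rose and none fell in edgeR (1 was lower at an unadjusted p under 0.05 and by DESeq2), namely Ifi209, Gimap6, Ifi204, Stat3 and B2m, of which the last was chosen after its value was seen. Without KO2D 4 rose and 1 fell, and Ifi204, which rested on 10 counts over the 4 control libraries, no longer passed (adjusted p = 0.0776).

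Upper-layer cortical markers fell for 8 of 18 and rose for 1 (median -0.17), with the same counts without KO2D. Cux2, a homeobox factor of upper layers, moved from 51.2, 68.8, 50.9 and 83.6 CPM to 27.7, 28.9, 29.6 and 22.6 CPM, without overlap (log2 fold change -1.23 ± 0.17, adjusted p = 7.85e-05). Deep-layer markers depended on KO2D: 3 of 24 fell with it (median -0.0034) and 12 of 24 without it (median -0.50), while 2 rose in both fits.

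Some genes passed only without KO2D. Sla, an adaptor protein gene, moved from 23.9, 28.2, 22.1 and 36.8 CPM to 8.02, 10.5, 6.70 and 43.1 CPM. Ldb2, a deep-layer LIM-binding factor, moved from 9.41, 17.1, 12.3 and 14.4 CPM to 3.77, 5.64, 5.15 and 23.8 CPM. In both genes 3 cultures went down and KO2D went up. The WT 24 h libraries averaged 64.2 ± 32.0 CPM for Sla and 37.9 ± 9.15 CPM for Ldb2 (SD, n = 4). Whether other RNA in the KO2D library sets these values was not tested. Their log2 fold changes were -0.95 (adjusted p = 0.0621) and -0.74 (adjusted p = 0.0953) with 4 cultures and -1.55 (adjusted p = 3.29e-07) and -1.40 (adjusted p = 6.54e-07) without KO2D. Grm3, the other group II metabotropic receptor, was at 2.72, 3.12, 2.50 and 8.04 CPM at 24 h against 6.18, 8.11, 8.12 and 5.73 CPM in control, and the deep-layer factor Foxp2 was at 0.153, 1.61, 0.517 and 3.08 CPM against 1.18, 4.39, 1.495 and 1.06 CPM. In the other direction, Ly96, a cofactor of Toll-like receptor 4, rose only without KO2D, by 1.69 (adjusted p = 0.00125).

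The KO response was then set beside the WT response of the same fit, which used no shared libraries. In WT neurons 5298 genes changed (31.6%), 2671 higher (15.9%) and 2627 lower (15.7%). Of the KO rises, 1135 also rose in WT, which is 81.5% of the KO list and 42.5% of the WT list. Of the KO falls, 1139 also fell in WT, which is 79.0% of the KO and 43.4% of the WT list. Across all 16777 genes, which are not independent, the 2 sets of log2 fold changes had a Pearson r of 0.62, and 0.60 without KO2D.

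For the genes that moved most in WT, the median KO response was smaller. Among the 573 genes that rose by over 2-fold in WT, the median log2 fold change was 1.65 in WT and 0.88 in KO, and the medians in the single KO cultures were 0.72, 0.93, 0.77 and 1.02. Among the 410 that fell by over 2-fold in WT, the medians were -1.38 in WT and -0.78 in KO, with -0.81, -0.91, -0.72 and -0.56 in the single cultures. These genes were chosen on their WT values, which raises the WT side. Chosen on KO instead, the 215 genes that rose by over 2-fold in KO had medians of 1.54 in KO and 1.95 in WT, and the 144 that fell had -1.40 in both.

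The test of the difference itself, KO response minus WT response, called 299 genes (1.78%), of which 133 were higher in KO (0.793%) and 166 lower (0.989%). Of these, 191 had log2 fold changes of the same sign in both genotypes and of smaller size in KO. Another 3 had the same sign and a larger size in KO, and 105 had opposite signs, whether or not either genotype passed. By call, 85 of the 299 rose and 75 fell in WT without passing in KO. Called in opposite directions in the 2 genotypes were 6 KO rises and 5 KO falls. Without KO2D the test called 835 genes (4.94%), with 368 higher in KO (2.18%) and 467 lower (2.76%), and 296 of the 299 among them. The call depended on the cultures: without the culture block it fell to 6 genes, and leaving out 1 WT culture gave 66 to 165. Over only those cultures whose control library carries the number 2 in its description (KO2B, KO2C, KO2D and 2 WT cultures), edgeR called 0 genes at the adjusted threshold and 788 at an unadjusted p under 0.05. When no gene differs, a share of about 0.05 of the genes tested passes that unadjusted threshold, so the 788 alone do not show differences. Over all cultures 2114 genes passed it.

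Genes that passed this test were ranked if their mean was at least 1 CPM over the 16 control and 24 h libraries of both genotypes. Among these, Ptgs2 and Emp1 had the largest negative differences. Ptgs2 moved from 8.16, 4.92, 9.85 and 6.16 CPM to 25.7, 25.2, 24.5 and 11.7 CPM in KO, and from 0.303 ± 0.353 to 7.34 ± 3.27 CPM (SD, n = 4) in WT. Both genotypes rose, and KO control libraries lay near the level that WT reached at 24 h. The responses were 1.58 ± 0.31 in KO and 4.74 ± 0.44 in WT, a difference of -3.16 ± 0.55 (adjusted p = 0.0062). For Emp1, an epithelial membrane protein, KO moved from 5.42 ± 1.13 to 13.6 ± 1.66 CPM and WT from 0.359 ± 0.323 to 7.69 ± 3.38 CPM, a difference of -3.15 ± 0.46 (adjusted p = 0.00146). Atf3, a stress-induced transcription factor gene, rose in both, from 10.98 ± 1.80 to 23.0 ± 5.83 CPM in KO and from 4.45 ± 1.51 to 32.2 ± 6.42 CPM in WT (difference -1.84 ± 0.21, adjusted p = 0.000193). The lysosomal gene Cd68 rose by 2.15 in WT, and in KO its value was 0.48 (adjusted p = 0.13; difference -1.67). Without KO2D, Cd68 rose in KO by 0.61 (adjusted p = 0.0108), and the difference was -1.53.

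Among the positive differences, Vcan, the large proteoglycan versican, had 26.2, 44.0, 46.6 and 28.1 CPM in KO control libraries and 12.2, 23.4, 24.1 and 28.4 CPM at 24 h. In WT neurons it moved from 137 ± 18.7 to 27.7 ± 2.69 CPM. The 2 genotypes ended near each other at 24 h, from control levels that did not. Its responses were -0.73 ± 0.13 in KO and -2.30 ± 0.13 in WT (difference 1.57 ± 0.18, adjusted p = 0.000193). Stard10, a lipid transfer protein gene, was at 7.11 ± 1.62 and 6.67 ± 1.02 CPM in KO (-0.08, adjusted p = 0.757) and at 13.9 ± 3.61 and 4.20 ± 0.478 CPM in WT (-1.69). Etv1 went opposite ways, up by 0.87 in KO and down by 0.52 in WT (difference 1.39 ± 0.23, adjusted p = 0.00508). For Ntrk2 the response was smaller in KO than the -0.74 of WT, a difference of 0.55 ± 0.09 (adjusted p = 0.00508). The same KO control libraries enter the KO response and the KO control levels given here, so no relation between the 2 was computed.

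**Figure D4:**
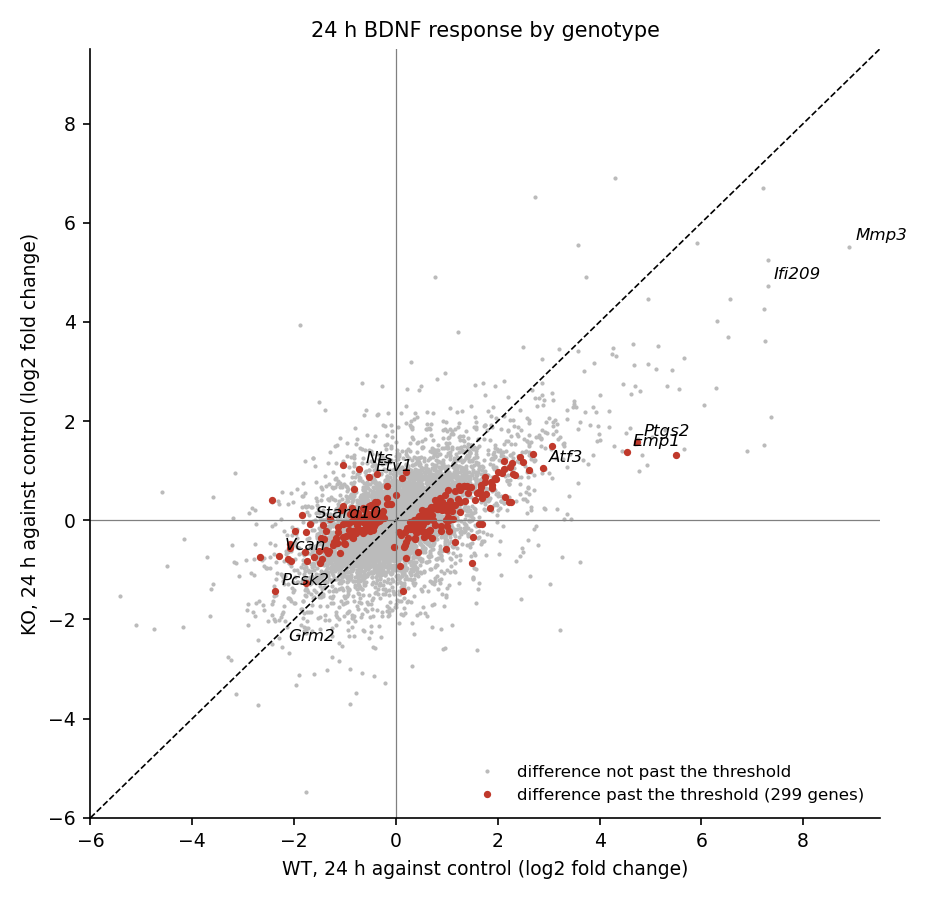
Fitted log2 fold change at 24 h in KO (vertical) against WT (horizontal), 1 point per tested gene, with the 299 genes whose response differed between genotypes in red and the dashed line marking equal responses. Most red points lie between the dashed line and the horizontal zero line, as for Ptgs2, Emp1 and Vcan.

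By list, the difference was lower in KO for 7 of 23 MAP kinase feedback genes and higher for 1, lower for 7 of 36 amino acid response genes and higher for none, and lower for 4 of 43 rapid genes and 4 of 44 late genes with none higher. Of 63 axon guidance genes, 5 were higher in KO and none lower. The background for these counts is the 0.793% higher and 0.989% lower of all genes given above. Without KO2D, where the background is 2.18% higher and 2.76% lower, the lower counts were 12 for the MAP kinase genes (1 higher), 16 for the amino acid response genes, 12 for the rapid genes and 14 for the late genes, with none higher in the last 3 lists. The axon guidance genes then had 9 higher and 5 lower.

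For 3 of the genes that changed most, whether the difference passed depended on KO2D. With 4 cultures it did not pass the test, at -3.38 ± 1.76 for Mmp3 (adjusted p = 0.448), -2.57 ± 1.23 for Ifi209 (adjusted p = 0.396) and -0.31 ± 0.51 for Grm2 (adjusted p = 0.876), with wide errors that do not show that the genotypes responded alike. Without KO2D all 3 passed as lower in KO. The values were -4.08 ± 1.05 for Mmp3 (adjusted p = 0.0266) and -2.51 ± 0.56 for Ifi209 (adjusted p = 0.0107), which are smaller fold rises in KO. Over all 4 cultures, control means for Mmp3 and Ifi209 were 0.011 and 0.144 CPM in WT and 0.0644 and 1.36 CPM in KO. The WT value of Mmp3 rested on 2 control counts. At 24 h the means were 7.65 and 21.9 CPM in WT and 4.70 and 22.6 CPM in KO. For Grm2 it was -1.09 ± 0.23 (adjusted p = 0.00826), which is a larger fall in KO. Tm4sf1 (-2.59), Akr1b8 (-2.32), Galr1 (-2.78) and Gimap6 (-1.99) also passed without KO2D. In that order, their control means over all 4 cultures were 0.1275, 0.237, 0.292 and 0.505 CPM in WT, and 0.476, 1.36, 1.07 and 1.82 CPM in KO. At 24 h the means were 6.9, 10.2, 10.8 and 13.05 CPM in WT and 4.945, 10.4, 7.33 and 11.7 CPM in KO.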

How the data were processed

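Per the labels, polyadenylated RNA was sequenced from stranded libraries. The authors deposited raw whole-number counts per gene for 24 libraries. The submitters' processing notes name edgeR 3.40.2, DESeq2 1.38.3, limma 3.54.2, STAR 2.7.9a and the mm10 build. No source used here names the counting program, its strand setting or the annotation. Of 45792 gene identifiers, 45229 were named from GENCODE M21, and the rest held 0.0662% of counts. Genes whose exons overlap others may share counts.

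The counts were fitted in edgeR 4.0.16 (R 4.3.3) by quasi-likelihood over all 24 libraries, with TMM factors, filterByExpr (minimum count 10, 16777 genes kept), a culture block and 4 treatment effects, leaving 12 residual degrees of freedom. Calls are at a Benjamini-Hochberg adjusted p under 0.05 over all genes tested. The biological coefficient of variation was 14.0%. CPM values use TMM-scaled library sizes. Standard errors were derived from the fold change and its F statistic. The fit was tested on simulated counts with the same spread for every gene and no library like that of KO2D at 24 h. That test therefore does not cover the effect of KO2D. The culture codes in the labels pair the libraries, and deviations from group means correlated at 0.240, 0.284, 0.195 and 0.207 within the 4 KO cultures, and between -0.187 and 0.044 otherwise.

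Named genes were the 15 largest rises and falls among called genes with a mean of at least 1 CPM and 4 of 4 cultures agreeing in sign, up to 4 called members per list, the 10 largest differences from WT and the 10 largest calls gained without KO2D, each way, plus Hist2h2be, Bdnf, Ntrk2, Xist and Ddx3y. Predicted gene models were passed over. Some members of the lists are not reported here by name. The comparison, the 35 gene lists and the 9 marker lists were chosen with earlier results of these data known, so counts over lists are descriptions. Lists not described above follow. Of 18 retinoic acid genes 2 rose and 3 fell, the same counts as without KO2D. Within these, the rise of Stra6 and the fall of Rarb were called only with KO2D. Of 37 actin cytoskeleton genes 9 rose and 4 fell, and 8 and 4 without KO2D. Of 25 cholesterol synthesis genes 2 rose and none fell, against 2 and 3 without KO2D and 7 rises by DESeq2. Of 12 interneuron markers 1 fell, against 3 rises and 2 falls without KO2D. For pericytes 1 of 11 markers fell, and for progenitors 1 of 12 rose. Of 12 striatal neuron markers 2 rose and 1 fell, against 2 and 2 without KO2D. Promoter windows came from RefSeq. DESeq2 1.42.0 served as an alternative.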

Additional observations from a re-analysis of the deposited data

Results flagged for a closer look

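Of 57 sets of 4 values checked for a sample far from the others, 3 held one, and chance gives about 1 in 20. All 3 were in culture KO2D: its control library had microglia markers at a summed 10.3 CPM, its 24 h library had oligodendrocyte-lineage markers at 68.9 CPM, and its 24 h response of Hist2h2be was -1.36 on the log2 scale.

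The 24 h response differed between the genotypes, by the test of the difference, for 299 genes. The mean used to choose among them was taken over the 16 control and 24 h libraries of both genotypes. Among those with a mean of at least 1 CPM, the 10 largest differences with a smaller value in KO, as log2 KO response minus WT response, were Ptgs2 (-3.16), Emp1 (-3.15), Lhfpl1 (-2.35), Col9a1 (-1.88), Sertad1 (-1.85), Cdk15 (-1.85), Atf3 (-1.84), Pax1 (-1.76), Fbln5 (-1.71) and Cd68 (-1.67). The 10 largest with a higher value in KO were Rgs9bp (2.85), Zfp92 (2.15), Abca8a (1.95), Ada (1.93), Rflnb (1.76), Nts (1.76), Stard10 (1.61), Cys1 (1.60), Vcan (1.57) and Kcnj2 (1.52). Over the 8 KO libraries Rgs9bp and Ada averaged 0.764 and 0.638 CPM, so they reached 1 CPM only through the WT libraries. Their WT control means were 7.405 and 3.91 CPM. For Lhfpl1 the KO value was -0.86 and the WT value 1.49, and for Nts they were 1.03 and -0.73.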

How the results depend on the processing

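The count of genes changed in KO (2834) stayed within 1.5 times under DESeq2's size factors (2852), the DESeq2 Wald test (3548), no filter on low counts (2958) and without mitochondrially encoded genes (2827). It moved to 942 without the replicate block, 1865 with only the 8 compared libraries and 1195 with only the 12 KO libraries. Leaving out each KO culture gave 1549 to 3270, the lowest without KO2B, and 1839 without KO2A. Among alternatives chosen after seeing the data, only the 6 libraries without KO2D gave 4722, and no replicate block without KO2D gave 1236. The count of genes whose response differed from WT (299) was 298 with DESeq2's size factors, 303 without mitochondrially encoded genes and 349 with only the 16 control and 24 h libraries, but 6 without the replicate block, 628 with DESeq2, 742 without the filter, 52 without the replicate block and without KO2D, and 0 over the cultures whose control is numbered 2. Leaving out each culture gave 66 (without WT replicate 2) to 835 (without KO2D). The values without WT cultures 1, 3 and 4 were 77, 144 and 165, and without KO2A, KO2B and KO2C 92, 135 and 199. The cause of these moves was not tested.

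Of 190 named genes, 137 stayed on the same side of the threshold without the replicate block and 53 no longer passed, and without KO2D 151 stayed, 23 newly passed and 16 no longer passed. Among named genes that passed in either of the fits compared, only Xist changed sign, to 0.0844 without the replicate block and without KO2D. Genes that passed in neither fit were not counted in this. Abca8a, for example, went from 0.10 with 4 cultures to -0.53 without KO2D. Counts below about 1 CPM, as for Mmp3 and Sele in control libraries, limit the precision of those fold changes.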
